A study of Mus musculus with 6 samples.

Results

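The genes described here encode enzymes that write or erase chemical marks on histones and DNA, proteins that read those marks, motors that move nucleosomes, and histones. They were chosen by symbol alone, from probes with a single annotated name in the Hdac, Sirt, Smarc, Kdm, Kmt, Kat, Chd, Dnmt, Brd and Cbx families and the Hist, H1f, H2a and H3f histone series. Of 16896 spots on 2 kinds of array, 117 carried such a name, 56 on array A and 61 on array B, and they belonged to 66 genes. A further 14 probes named such a gene together with another gene and were left out, among them the probes shared by Sirt2, Sirt3 and Sirt7 with other genes. Of the 66 genes, 37 had at least 1 probe above the brightness filter described next, so that 29 were measured only by dim spots.

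Liver RNA of 3 males, each mouse alone in its group, was hybridised as total RNA. The first mouse ate ad libitum and was killed at 17 days, in age group 1, the second ate ad libitum and was killed at 174 days, and the third was on caloric restriction and was killed at 177 days, both in age group 2. The unit of the youngest age rests on the label alone, and no strain is given. Each liver was measured once on array A and once on array B, which carry different spots. With a single mouse in a group no difference has an error between animals, no test was possible, and fewer cells of a type cannot be told apart from less RNA per cell. A probe is said to enter where its normalized log2 level, averaged over the mice, passed the 50th percentile for that kind of array. The value of a gene is the median over its entering probes, and 2-fold stands for a log2 difference of 1. The spread among probes of the same gene stands in for a measurement error below.

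The arrays of the 174-day mouse were the dimmest of each kind, with median spot intensities of 35.8 on A and 60.8 on B against 333 to 403 for the other 4 arrays. The liver label was borne out by Alb, the albumin gene, whose spot lay 68.9, 86.3 and 77.9 times above the array median in the 17-day, 174-day and calorie-restricted mouse. Apoa1, which encodes the main protein of high-density lipoprotein, lay 33.1, 51.4 and 23.4 times above it. Summed normalized levels of the 6 entering hepatocyte markers of 19 listed were 24538, 21311 and 33496 in the same order, and those of 10 entering proliferation markers of 23 were 10135, 9270 and 11035. Among the hepatocyte markers Alb alone was past 2-fold between the calorie-restricted and the 174-day mouse, at 1.18 log2 higher in the former after normalization. Relative to the array median, Alb was lower in the calorie-restricted mouse (77.9 against 86.3 times), so the direction rests on the normalization. Corrected for spot position, as described below, its difference was 0.57. Alb is part of the hepatocyte sums above. Across the 6 the median between the calorie-restricted and the 174-day mouse was -0.01, with 2 above 0 and 4 below. For 5 entering erythroid markers of 18 the sums were 12557, 11227 and 13014, and for 3 entering macrophage markers of 12 they were 1922, 1653 and 1664. Stellate (4 of 9), cholangiocyte (2 of 6) and endothelial (1 of 9) markers summed to 2540, 2359 and 2406, to 531, 585 and 436, and to 1097, 903 and 818, and no lymphocyte marker of 11 entered. Cdk1, a kinase of dividing cells, was 1.44 log2 higher in the calorie-restricted than in the 174-day mouse and the 1 proliferation marker past 2-fold. Of the 10 proliferation markers 6 lay above 0 in this comparison and 4 below, with a median of 0.19 and Mcm6 lowest at -0.75. The part of these markers in the differences below was not tested.

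DNA in the nucleus is wound around octamers of histones, and the tails of those histones carry acetyl and methyl groups that are added by writers and removed by erasers. Readers with a bromodomain or chromodomain bind the marks, and remodellers spend ATP to slide, eject or exchange nucleosomes. In the liver these proteins serve the change from fetal to adult gene programmes and the response to feeding and fasting, and sirtuins couple deacylation to the cell's supply of NAD. Of the 117 member probes 42.7% entered, against 46.8% of all probes with 1 symbol.

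Between the young and the older ad libitum mouse, nearly all of these genes lay close together. The median difference of the 37 genes (174 days minus 17 days) was 0.06 log2, with 21 above 0 and 16 below, beside -0.03 over all 3865 genes with an entering probe, of which 46.3% lay above 0. H2az1, which encodes the histone variant H2A.Z, was the 1 gene at least 2-fold higher in the 174-day mouse, where 0.724% of all genes were, and H3f3b, a gene of a replication-independent histone H3, was the 1 gene at least 2-fold lower (-1.73), against 0.44%. Together they were 2 of 37 genes, where 1.16% of all genes were 2-fold apart in either direction. Each of these values was carried by a single spot, described with the histones, and the H2az1 spot passed the brightness filter only through the 174-day mouse, since it was dimmer than the median spot in the others. Centring the arrays on their medians in place of quantile normalization gave 2 higher members and 1 lower, and 61 higher and 14 lower of 3869 genes in place of 28 and 17 of 3865. Apart from them the members ran from -0.72 for Smarce1 to 0.79 for Brd1. At a threshold of 1.5-fold 3 members were higher, H2az1, Brd1 and Smarcad1, and 2 lower, H3f3b and Smarce1, where 3.7% and 4.92% of all genes were.

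Between the calorie-restricted and the ad libitum mouse of similar age, the median was -0.16 over the 37 genes, 13 above 0 and 24 below, beside -0.04 over all genes, of which 52.7% lay below 0. On array B alone the members' median was -0.08 and that of all genes -0.09, and on array A alone they were -0.23 and 0.02. None was at least 2-fold higher in the calorie-restricted mouse (2.25% of all genes), and 4 were at least 2-fold lower (4.61%), namely H2az1, Kmt2b, Smarcad1 and Smarca4; 6.86% of all genes were 2-fold apart in either direction. At 1.5-fold 3 were higher and 11 lower, against 11.5% and 17.0% of all genes. Differences between mice correlated at 0.42 between spots 22 apart in the order in which they are listed. That order was assumed to follow their place on the array. A correction was therefore made that subtracts the median deviation of a block of spots listed together and that of each place in the block. Blocks are short unless longer ones are named. After this correction Kmt2b, Smarcad1 and Smarca4 were under 2-fold, and the H2az1 value, which entered through the 174-day mouse alone, stayed past it. Of the 11 genes lower at 1.5-fold 6 stayed past that threshold after the correction and 3 with longer blocks. H2az1, Kat7 and Kmt2c stayed past it under both, and none of the 3 higher genes did. How many of all genes stayed past 1.5-fold was not counted. At 2-fold the correction also lowered the counts over all 3865 genes. Lower genes numbered 178 before it, 92 after it and 78 with longer blocks, and higher genes 87, 32 and 35. The comparison uses the same 174-day arrays as the age comparison, so a spot that reads high on them appears higher in one and lower in the other.

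The calorie-restricted liver minus the 17-day liver gave a median of -0.17 over the 37 genes, 10 above 0 and 27 below, beside -0.09 over all genes, of which 58.8% lay below 0. No member was at least 2-fold higher (0.466% of all genes), and H3f3b was the 1 member at least 2-fold lower (1.11%, and 1.58% in either direction). This comparison uses the same 17-day arrays as the age comparison. At 1.5-fold Brd1 was higher, against 5.49% of all genes, and Cbx7, H3f3b, Kmt2b and Smarca4 were lower, against 9.91%. Of these 5 H3f3b alone stayed past 1.5-fold after the correction for spot position. The share of all genes that stayed past it was not counted. With that correction the members' median was -0.09, with 15 above 0 and 22 below. Over all genes the corrected median was -0.03, with 2076 of 3865 below 0.

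**Figure D1:**
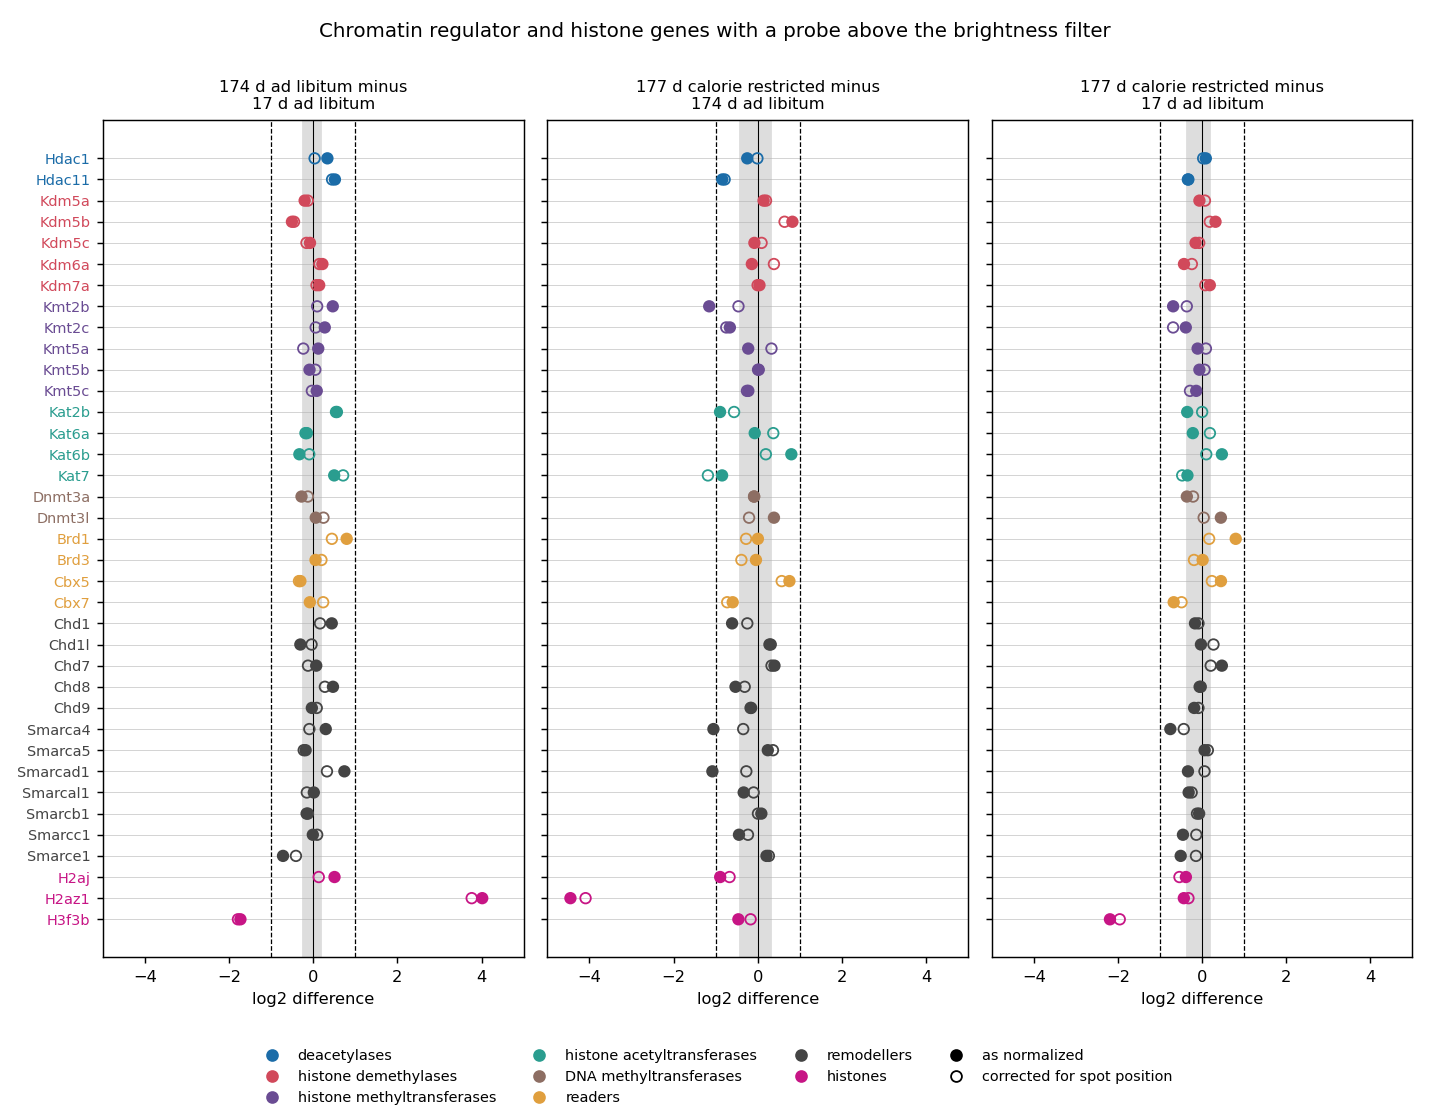
Each row is 1 of the 37 chromatin regulator or histone genes with an entering probe, and the x axis gives its log2 difference in each of the 3 comparisons, 1 mouse against 1 mouse. Filled points are normalized values and open points are corrected for spot position; grey bands span the middle 50% of all 3865 genes and dashed lines mark 2-fold. H2az1 and H3f3b stand far from the rest, and Kmt2b, Smarca4 and Smarcad1 lie left of the dashed line in the middle panel only as filled points.

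Acetyltransferases transfer acetyl groups to histone lysines, a mark of open chromatin. Of 7 such genes 4 entered. The entering probe of Kat2b, a coactivator also known as PCAF, read 747 in the 17-day, 182 in the 174-day and 475 in the calorie-restricted mouse. On the normalized log2 scale these were levels of 8.56, 9.10 and 8.20, so the 174-day mouse was 0.54 above the young one and 0.90 above the restricted one. After the correction for position the Kat2b age and diet differences were 0.56 and -0.56, and with longer blocks 0.41 and -0.36. A dimmer Kat2b probe was at 0.35 and -0.08 in the age and diet comparisons. Kat7, also known as HBO1, an enzyme active at replication origins, read 457, 102 and 296, which became levels of 7.83, 8.33 and 7.48. The normalized difference of Kat7 between the calorie-restricted and the 174-day mouse was -0.85, and it was -1.18 after the correction for position and -1.05 with longer blocks, so this gene passed 2-fold only once position was taken into account. In contrast, Kat6b, a MYST-family acetyltransferase, was highest in the calorie-restricted mouse, with readings of 483, 38.2 and 692 and a diet difference of 0.80, which was 0.19 after the correction and 0.62 with longer blocks. Its paralogue Kat6a had levels of 10.21, 10.06 and 9.99, which differed by at most 0.22. As multiples of the array median that spot was at 5.59, 6.68 and 4.32. After the correction the Kat6a diet difference was 0.37, or 0.53 with longer blocks, and the 2 dim Kat6a spots were at -0.50 and 0.63 with diet. The first of these dim spots was under the intensity floor in the calorie-restricted mouse. Kat2a, Kat5 and Kat8 had dim spots only. The Kat2a spot held the value of exactly 10 in the 174-day mouse, and the Kat8 spot was at the intensity floor in all 3 mice.

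Methyltransferases of the Kmt families place methyl groups on histone lysines. Kmt2b and Kmt2c belong to the MLL family, which marks promoters and enhancers. The Kmt2b spot read 775 in the 17-day, 180 in the 174-day and 394 in the calorie-restricted mouse, levels of 8.62, 9.08 and 7.93. The calorie-restricted mouse was thus lowest, at -1.15 against the 174-day mouse and -0.69 against the young one. After the correction for position these were -0.46 and -0.37. Kmt2c read 573, 71.8 and 466, and its diet difference of -0.66 was -0.75 after the correction. Kmt2e was measured by dim spots only, which were at 0.54 and 1.35 with diet.

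Kmt5a, which adds the first methyl group to a lysine of histone H4, had levels of 8.99, 9.10 and 8.88 and lay within 0.23 in every comparison. Kmt5b, which extends that methylation, shows how far probes of the same gene can part. An entering spot read 631, 113 and 313 and the other 388, 45.5 and 478, so the diet differences were -0.90 and 0.95. Their median of 0.02 therefore describes neither probe. A dimmer Kmt5b probe was at 0.97, but its 174-day reading of 2.02 lay under the intensity floor of that array and was set to it. Kmt5c, with an activity like that of Kmt5b, was at 0.08 in the age and -0.22 in the diet comparison. Of the 5 entering methyltransferases 4 lay above 0 with age and 4 below 0 with diet, values that share the 174-day arrays. Corrected for position, 3 of 5 lay above 0 with age and 3 of 5 below 0 with diet.

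DNA methyltransferases attach methyl groups to cytosine. Dnmt3a, which sets new methylation, had a probe on each array, and both put the 174-day mouse 0.28 below the 17-day mouse. With diet the array A probe was at -0.37 and the array B probe at 0.20, for a gene value of -0.08. Dnmt3l, a partner protein without catalytic activity, was at 0.06 and 0.39 in the age and diet comparisons, but the latter was -0.21 after the correction for position. The Dnmt3b spot lay at the intensity floor in every mouse.

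Deacetylases remove acetyl groups. Hdac1, a catalytic subunit of the main corepressor complexes, read 640, 132 and 537, levels of 8.32, 8.66 and 8.41. The 3 livers were within 0.34 log2 of each other for Hdac1, within 0.03 after the correction for position and within 0.20 with longer blocks. Hdac11, the sole member of its class, read 603, 143 and 393 and had levels of 8.25, 8.77 and 7.92. It was highest in the 174-day mouse, 0.51 above the young mouse, and its diet difference was -0.84, or -0.79 and -0.48 after the 2 corrections for position. Hdac2, Hdac3 and Hdac10 had no entering probe. The 2 spots of Hdac2, the close paralogue of Hdac1, disagreed in sign: 1 was at -0.84 with diet and 0.52 with age, the other at 1.09 and -0.49. Hdac3, the subunit of the NCoR corepressors, was at 0.85 with age and -0.70 with diet, and Hdac10 at 0.24 and -0.72, all from dim spots.

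Sirt1, the NAD-dependent deacylase most often studied in calorie restriction, was the only sirtuin with a probe of a single name. Its spot, on array B, fell just short of the brightness filter, at the 48.7th percentile of its array. It read 375 in the 17-day, 60.6 in the 174-day and 309 in the calorie-restricted mouse. Normalized levels were 7.55, 7.65 and 7.54, so the 3 mice lay within 0.10 log2 and the diet difference was -0.10 (-0.14 after the correction for position). The pooled SD of probes around their gene's mean was 0.58 in the diet comparison over 557 genes with at least 2 entering probes, well above the distance between these mice. A difference of that size in Sirt1 was not detectable with 1 spot and 1 mouse per group.

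Demethylases of the Kdm families take methyl groups off histone lysines. The Kdm5 enzymes act on the promoter mark that the MLL family writes. Kdm5b had an entering probe on each array. That on array A read 533, 43.7 and 777 and that on array B 746, 69.6 and 652 in the 17-day, 174-day and calorie-restricted mouse. Both put the 174-day mouse lowest after normalization, with age differences of -0.29 and -0.73 and diet differences of 0.77 and 0.88. The gene's diet value of 0.82, the highest of all members, was 0.64 and 0.50 after the 2 corrections for position, and the remaining Kdm5b spot lay at the intensity floor. Kdm5a was less even, since its array A probe was at -0.30 with diet and its array B probe at 0.58. Kdm5c, an X-linked paralogue, read 3666, 753 and 2133, levels of 10.90, 10.82 and 10.74 that differed by at most 0.16. As multiples of the array median the Kdm5c spot was less even, at 9.11, 12.4 and 6.41.

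Kdm6a, also known as UTX, removes the Polycomb mark, and all 3 of its probes entered. Diet differences ran from -1.25 for the array B probe to -0.14 and 0.31 for the array A probes, and the gene value of -0.14 became 0.38 after the correction for position. Kdm7a likewise had its 2 brightest spots at -0.65 and 0.74, although both lay on array B, and both were near 0 in the age comparison (0.25 and 0.03). Kdm1a, Kdm2b, Kdm3a and Kdm4a were measured by dim spots only. A dim Kdm2b spot on array A read 25.3 in the 174-day mouse and 27.0 and 62.5 in the others, and since both others lay under the intensity floor of their arrays no size is given for the difference, whereas the array B spot of Kdm2b was at -0.38 with age.

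Readers had 4 of 10 genes with an entering probe. Brd1, a scaffold of acetyltransferase complexes, read 383, 67.6 and 679, levels of 7.48, 8.28 and 8.28. Both older mice were thus above the young one, by 0.79 and 0.80, and these were 0.44 and 0.17 after the correction for position, or 0.60 and 0.31 with longer blocks. Both values share the 17-day array. Brd3, a member of the BET family, had entering probes at -0.11 and 0.22 with age and 0.30 and -0.38 with diet. Cbx5, which encodes heterochromatin protein HP1 alpha, had entering probes on both arrays that were higher in the calorie-restricted than in the 174-day mouse, by 0.55 and 0.96. The 2 dimmer Cbx5 spots lay the other way, at -0.57 and -1.03, and with all 4 spots the gene was at -0.01. Cbx7, a Polycomb subunit, read 994, 104 and 672 and was at -0.60 in the diet comparison and -0.68 between the calorie-restricted and the young mouse. After the correction for position these were -0.73 and -0.49, and with longer blocks -0.09 and -0.03. The other 6 readers had dim spots only: with diet Brd2, a BET protein, was at 0.63 and 0.41, Brd7 at -0.16, Brd8 at 0.29, Brd9 at 0.46 and Cbx8 at -0.82, and Cbx1 lay at the floor.

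Remodellers were the largest class, with 20 genes and 12 that entered. Smarca4, also known as BRG1, is the ATPase of the SWI/SNF complexes. Its brighter spot read 791 in the 17-day, 163 in the 174-day and 387 in the calorie-restricted mouse, levels of 8.65, 8.95 and 7.90. The calorie-restricted mouse was lowest, at -1.05 against the 174-day and -0.76 against the 17-day mouse, but -0.34 and -0.44 after the correction for position. A dimmer Smarca4 spot on the other array was at 0.58 and 0.50, and with both spots the gene was at -0.24 and -0.13. Smarcad1, which acts at replicating heterochromatin, read 480, 84.0 and 399, levels of 7.83, 8.57 and 7.49. It was 0.74 higher in the 174-day than in the young mouse and its diet difference was -1.08. A dimmer Smarcad1 spot on the same array went the same way, at 0.51 and -0.88. After the correction for position the entering spot was at 0.33 and -0.27.

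Smarcb1, a subunit of SWI/SNF complexes, had 2 entering spots on array B, of 5621, 1150 and 3604 and of 7557, 1476 and 4104. Their age differences were -0.11 and -0.21 and their diet differences 0.17 and 0.00. Between the calorie-restricted and the young mouse they were at 0.07 and -0.21, so each spot lay within 0.21 log2 over the 3 livers after normalization. As multiples of the array median the 2 spots were less even, at 14.0, 18.9 and 10.8 and at 18.8, 24.3 and 12.3. The evenness of these bright spots thus rests on the quantile normalization. Smarcc1, a scaffold subunit, was at -0.01 with age and -0.45 with diet, and Smarcal1, an annealing helicase, at 0.01 and -0.33. Smarce1, which carries an HMG domain, read 596, 36.4 and 446 and had the second lowest age difference among the members, -0.72, which was -0.41 after the correction for position and -0.57 with longer blocks. Smarca5, the ATPase of the ISWI complexes, had 2 entering probes at -0.18 and -0.19 with age and 0.27 and 0.21 with diet, and a dimmer spot at -0.72 and 0.65.

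Among the CHD remodellers, Chd1l, which is activated by poly(ADP-ribose), read 14604, 1742 and 10344. Its levels of 12.76, 12.45 and 12.73 lay within 0.31 of each other. As multiples of the array median the Chd1l spot was at 40.1, 48.7 and 27.6. Chd9 had entering probes on both arrays, at -0.38 and 0.31 with age and -0.23 and -0.08 with diet. Chd7 was 0.47 higher in the calorie-restricted than in the young mouse, 0.20 after the correction for position and 0.32 with longer blocks, and its dimmer spot was at -0.19. Chd8 was at 0.47 with age and -0.53 with diet. Corrected for position it was at 0.28 and -0.31, and with longer blocks at 0.13 and 0.08. The 2 dimmer Chd8 spots were at -0.81 and -0.52 with age, the latter from a 174-day reading under the intensity floor. Chd1, which binds methylated promoter histones, was at 0.44 with age and -0.61 with diet, and with diet -0.25 after the correction for position and -0.39 with longer blocks. Chd4, of the NuRD complex, and Chd6 had no entering probe, and their dim spots disagreed. In the age comparison those of Chd4 were at -1.70 and 0.44 and those of Chd6 at 1.87 and -0.52. Among other dim remodellers Smarca2, the second SWI/SNF ATPase, was at 1.18 with age and -0.82 with diet, Chd3 at 0.82 and -0.84, Smarcd1 at -0.74 and 0.73, and Smarcd2 at 0.12 and 0.15. The 2 dim Smarca1 spots parted in the diet comparison, at -1.28 and 0.66, and Smarcc2 lay at the intensity floor.

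**Figure D2:**
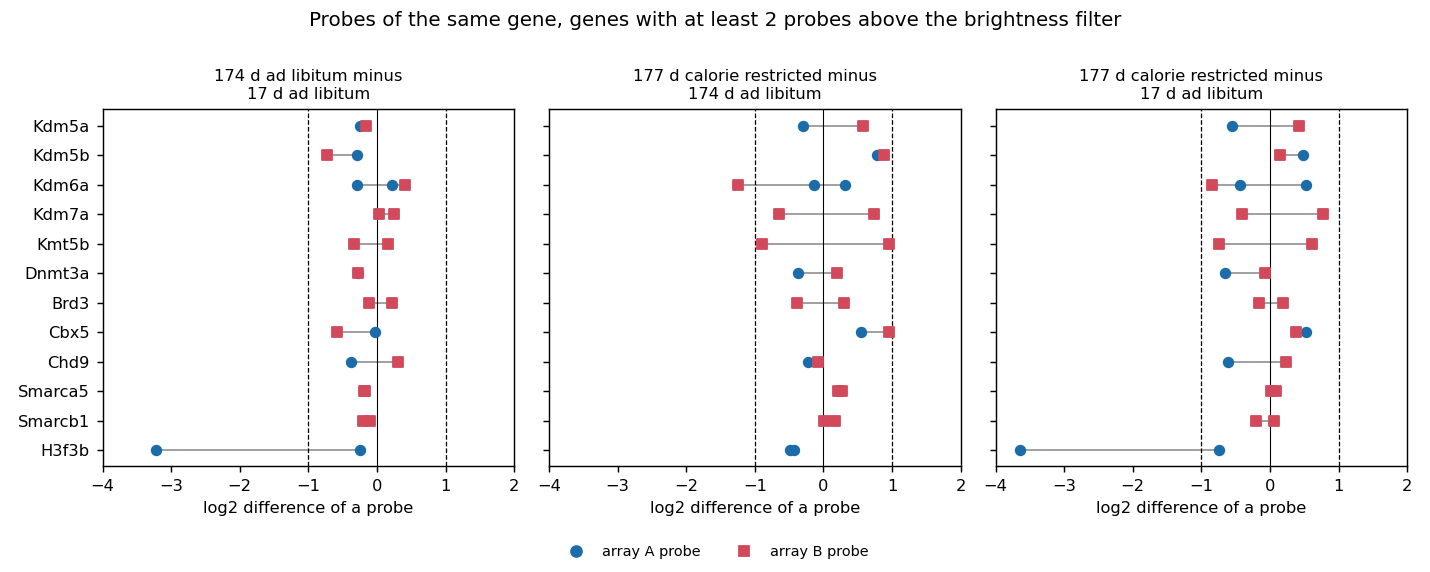
Each row is 1 of the 12 chromatin regulator or histone genes with at least 2 entering probes, each point is 1 probe on array A (circles) or array B (squares), and the x axis gives its log2 difference between 2 mice. A line joins the probes of a gene and dashed lines mark 2-fold; Kdm6a, Kdm7a and Kmt5b straddle 0 in the middle panel, as do Kdm5a, Dnmt3a and Brd3, H3f3b has a probe at -3.22 in the left and -3.65 in the right panel, and Smarcb1 and Smarca5 keep their probes close together.

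Across these 12 genes, all entering probes had the same sign in 8 genes with age, 6 with diet and 5 between the calorie-restricted and the young mouse. Of all 557 genes with at least 2 entering probes 50.1%, 49.7% and 48.7% had this, against 66.7% of the members with age, 50% with diet and 41.7% in the last comparison. In no comparison were all entering probes of a gene 2-fold apart between the mice. The pooled SD of probes around their gene's mean was 0.64, 0.61 and 0.78 log2 for these members in the same order, and 0.45, 0.58 and 0.40 over all 557 genes. The members' values include H3f3b, whose probes lay up to 2.97 apart with age and 2.91 apart between the calorie-restricted and the young mouse.

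Histones gave the extreme values. H2A.Z, the product of H2az1, replaces ordinary H2A near transcription start sites. Of 4 H2az1 spots, all on array A, 1 entered, and it read 255 in the 17-day, 542 in the 174-day and 196 in the calorie-restricted mouse. Relative to the array median these were 0.70, 15.1 and 0.52 times, so the 174-day mouse stood alone. The other 3 spots lay from 0.23 to 0.44 times the median in all 3 mice, and their age differences were -0.05, 0.19 and 0.80. With all 4 spots H2az1 was at 0.49 with age and -0.56 with diet. On array A, which has 8448 spots, 99 spots were set apart by 1.5 log2 or more in the 174-day mouse alone, the H2az1 spot among them.

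H3f3b is one of the genes whose histone H3 is laid down outside replication. A spot on array A read 5866 in the 17-day mouse and 64.5 and 495 in the others, which is 16.1, 1.80 and 1.32 times the array median. The 17-day mouse stood alone on this spot, which was 1 of 7 on array A to do so. Another entering spot was at 3.84, 3.93 and 2.52 times the median, and its age difference was -0.25. The 2 dimmer spots were at 0.04 and 0.07 with age. Over all 4 spots H3f3b was at -0.10 with age and -0.55 between the calorie-restricted and the young mouse.

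H2aj, which encodes an H2A variant, entered with 1 spot of 2244, 458 and 1888, levels of 10.20, 10.71 and 9.82. The 174-day mouse was highest, with an age difference of 0.51 and a diet difference of -0.89, while the dimmer H2aj spot on array B was at 0.28 and 0.26. Corrected for position the entering spot was at 0.13 and -0.67, and with longer blocks at -0.25 and -0.28. H1f8, an oocyte linker histone, and H2ac8, 1 of a cluster of nearly identical H2A genes that hybridisation may not separate, had dim spots only. H1f8 was at -0.52 with age and 0.51 with diet, and H2ac8 at -0.16 and -0.15. The H2ac8 reading in the calorie-restricted mouse was under the intensity floor.

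**Figure D3:**
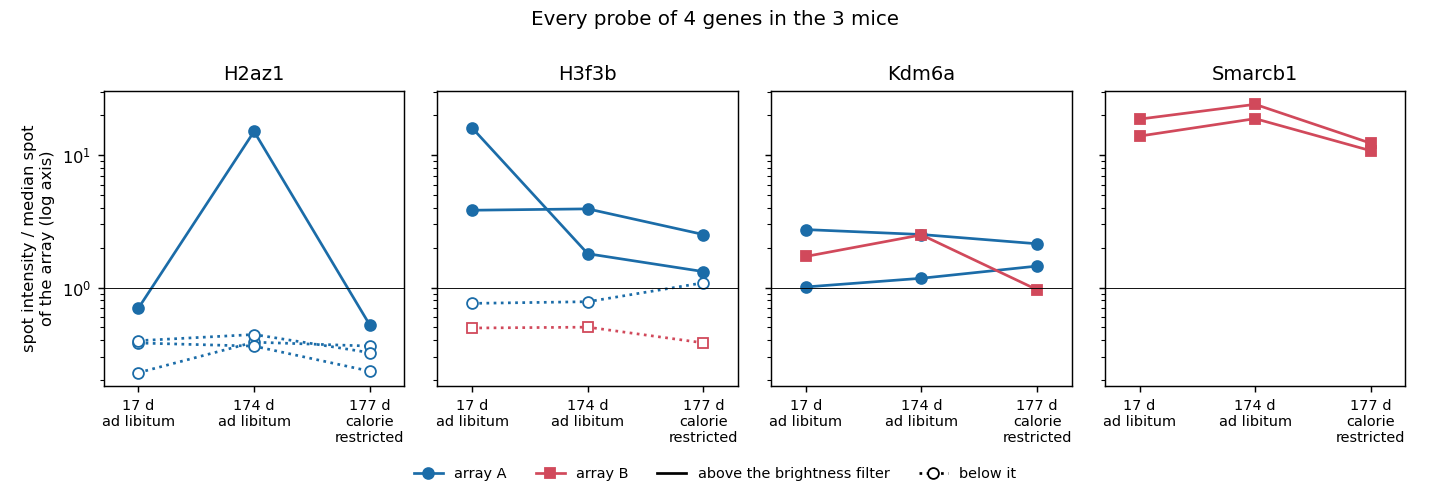
Each line is 1 probe and the y axis, which is logarithmic, gives its intensity as a multiple of the median spot of the same array in each of the 3 mice. Circles are array A and squares array B, solid lines are entering probes and dotted lines dim ones. A single H2az1 probe peaks in the 174-day mouse (15.1 times) and a single H3f3b probe in the 17-day mouse (16.1 times), while the other probes of these genes, the 3 of Kdm6a and both of Smarcb1 show no such peak.

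Promoter letters were available for 54 of the 66 genes, as 77 windows from the RefSeq annotation of GRCm38.p6. The 250 bases before each start were searched for CCAAT on both strands (CCAAT or ATTGG), a motif bound by NF-Y and common in histone promoters. The 5 histone windows all held at least 2 matches, as did 10.1% of all 32851 windows. Over all members 15.6% of windows held at least 2 matches and 37.7% at least 1, against 33.9% of all windows. The median number of CpG pairs per window was 19 in members and 6 in all windows. The windows of the 2 genes with extreme spots are printed below, 5′ to 3′ on the strand of the gene, with the matches in capitals. H2az1 and H3f3b share these letters, and a relation of the letters to their spot values was not tested. H2az1 lies on the plus strand (chr3:137864237-137864486, 2 matches, 28 CpG pairs) and H3f3b on the minus strand (chr11:116024505-116024754, 4 matches, 19 CpG pairs).
H2az1: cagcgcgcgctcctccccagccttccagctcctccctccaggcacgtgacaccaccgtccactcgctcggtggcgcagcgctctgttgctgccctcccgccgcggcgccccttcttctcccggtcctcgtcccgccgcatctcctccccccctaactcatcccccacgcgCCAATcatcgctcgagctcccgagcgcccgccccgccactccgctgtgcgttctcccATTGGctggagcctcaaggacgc
H3f3b: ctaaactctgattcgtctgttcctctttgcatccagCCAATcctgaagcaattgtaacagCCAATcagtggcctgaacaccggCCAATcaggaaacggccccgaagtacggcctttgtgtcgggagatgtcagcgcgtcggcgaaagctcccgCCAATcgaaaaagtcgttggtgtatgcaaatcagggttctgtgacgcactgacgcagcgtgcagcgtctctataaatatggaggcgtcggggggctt
A match is a description of the letters and not evidence of binding.

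Partners of these proteins that carry other names were read in 7 lists of 217 genes, of which 81 had an entering probe. Their medians were -0.07 with age, -0.02 with diet and -0.14 between the calorie-restricted and the young mouse, beside -0.03, -0.04 and -0.09 over all genes. None was 2-fold apart with age. In the diet comparison 1 was at least 2-fold higher, Rcor1, the CoREST corepressor (1.05), and 5 were at least 2-fold lower, of 81, where 2.25% and 4.61% of all genes were. These were Jade1, a scaffold of Kat7 complexes (-1.59), Hira, the chaperone that deposits the H3f3b product (-1.19), Ing1, a Sin3 complex subunit (-1.18), Hat1, which acetylates new histone H4 (-1.16), and Msl3, a partner of Kat8 (-1.12). With dim spots included Hira was at -0.25, Hat1 at -0.62, Ing1 at -0.75 and Jade1 at -1.45, while Msl3 and Rcor1 kept their values. After the correction for position Jade1 alone of these 6 stayed past 2-fold, at -1.22, while Rcor1 was at 0.40, Hira at -0.83, Hat1 at -0.80, Msl3 at -0.66 and Ing1 at -0.58. Between the calorie-restricted and the young mouse Taf1, a subunit of TFIID, was at 1.11 and Hat1 at -1.11, and after the correction they were at 0.75 and -0.79. With dim spots included Hat1 was at -0.40 there.

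By complex, 9 entering Polycomb genes of 25 had a median of -0.18 with age and 0.26 with diet, and 9 corepressor subunits of 29 had medians of 0.05 and 0.29. The 12 histone chaperones and exchange factors of 32 had a median of 0.04 with age and -0.36 with diet, 10 of them below 0 in the latter, and after the correction for position the diet median was -0.09 with 7 below 0. Acetyltransferase subunits (15 of 38) were at 0.05 and -0.12, and other methyltransferases with their subunits (15 of 44) at -0.21 and -0.10. Readers and oxidases of methylated DNA (7 of 15) were at -0.12 and 0.20, and other remodelling subunits (14 of 34) at -0.02 and 0.12. Corrected for position, the diet medians were 0.32 for Polycomb genes, 0.02 for corepressor subunits and -0.01 for acetyltransferase subunits. They were -0.02 for other methyltransferases, 0.08 for readers and oxidases of methylated DNA and 0.02 for other remodelling subunits. Over all genes the corrected diet median was -0.002, with 1943 of 3865 below 0.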

How the data were processed

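Each array has 1 column of deposited spot values, taken here as linear intensity because they are positive and span several orders of magnitude; what the authors did to make the intensity values (background, scaling) is not given in the sources used here. Probes were named through GEO's platform annotation, and all 66 symbols matched RefSeq genes of GRCm38.p6 by gene number. Values under the 5th percentile of an array were set to it. After log2 transformation the 3 arrays of each kind were quantile-normalized together, with tied values sharing their mean. Columns that match no mouse numbered 0. The position correction removed each array's median deviation per block of 22 consecutive spots and per place in the block, 22 being the divisor at whose lag the differences between mice correlated most; blocks of 528, called longer blocks, were added after seeing the data. The order of spots in the table stood for their place on the array.

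The members and lists were chosen with earlier results of these data known. Named were, per comparison, members past 2-fold and the 5 highest and lowest, the 3 with the brightest probes per class, those with at least 3 probes, and all Hdac, Sirt, Dnmt and histone members; of related genes, those past 2-fold. Other members were named after their values were seen. The normalization and gene values were tried on simulated data with planted differences. That simulation held no effect of spot position and no single stray spots, and the position correction was not run on it. It therefore says nothing about those. Python 3.11.15, numpy 2.4.6, pandas 2.3.3 and statsmodels 0.14.6 were used.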

Additional observations from a re-analysis of the deposited data

How the results depend on the processing

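No paired analysis was possible because each group held 1 mouse. Of the counts of members past 2-fold, that of higher members with age (1) was 2 with median centring, 3 at 1.5-fold, and 0 with probes above the 75th percentile only, without spots apart only in the 174-day mouse or on array B alone. Of all genes 28 of 3865 were higher there. Those settings gave, in order, 61 of 3869, 143 of 3865, 5 of 1840, 12 of 3850 and 9 of 2106. The count of lower members with age (1) was 2 at 1.5-fold, and 0 without the brightness filter, with the brightest probe of a gene, without spots apart only in the 17-day mouse or on array B alone. The same 4 settings gave 0 for the count of lower members between the calorie-restricted and the young mouse (1), which was 4 at 1.5-fold. Of all genes 17 of 3865 were lower with age and 43 in the latter comparison. At 1.5-fold these were 190 and 383. The 4 settings gave 90 of 7151, 18 of 3865, 14 of 3863 and 5 of 2106 with age. Between the calorie-restricted and the young mouse they gave 54, 45, 40 and 8 of the same totals. With diet, the count of lower members (4) was 2 without the brightness filter, with either correction for position and on array A alone, 0 with probes above the 75th percentile only, 6 with median centring and 11 at 1.5-fold. Of all genes 178 of 3865 were lower there, and in the order of those settings 313 of 7151, 92 and 78 of 3865, 105 of 2022, 56 of 1840, 613 of 3869 and 658 of 3865. The counts of 0 higher members were 3 with diet and 1 between the calorie-restricted and the young mouse at 1.5-fold. Of all 3865 genes 445 and 212 were higher at that threshold. The members' medians ran from -0.08 to 0.28 with age, -0.58 to -0.04 with diet and -0.34 to -0.03 in the third comparison. The ends at 0.28 and -0.58 came with median centring, which put the median of all genes at 0.21 and -0.31. No member past 2-fold changed sign under any alternative run. These runs covered only the members that were named by the rules above and had an entering probe. A floor at the 25th percentile, loess and leaving out spots of exactly 10 moved none of those by more than the pooled probe SD. Dim spots and 1 mouse per group set the limit of what could be seen.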
